A study of Mus musculus with 18 samples.

Results

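Fibroblast growth factor (FGF) ligands and receptors were followed in mouse tail tendon fibroblasts (TFs) through 10 genes, which were the rows of the deposited gene table named *Fgf2*, *Fgf5*, *Fgf7*, *Fgf9*, *Fgf10*, *Fgf18*, *Fgf21*, *Fgfr1*, *Fgfr2* and *Fgfr3*, out of 55491 rows in all. There were 7 ligands and 3 receptors. All 10 passed the filter on low counts. Bulk poly-A RNA sequencing was done on 18 libraries, in 6 groups of 3, after 4 days of culture in 20% O2 (normoxia) or 1% O2 (hypoxia). Ctrl TFs were labelled wild-type and came, per the study's methods, from Cre-negative mice of a colony that carries floxed *Hif1a*, on a mixed C57BL6J/129S1 background. cKO TFs were labelled *Hif1a* knockout and came from *Hif1a* fl/fl mice with ScxCre, in which the tendon gene *Scx* drives Cre, so that only cells that have expressed *Scx* lose *Hif1a*. In the other arm, labelled wild-type as well, Ctrl TFs were given Cre gesicles, which are vesicles that carry Cre protein into cells and were meant as a parallel way to lower *Hif1a* in culture. The mice were 4 to 6 months old and of both sexes, and the TFs grew out of tail tendon in collagen gels before they were passaged on plastic. The labels give 10% serum and the study's methods 1% serum.

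FGFs are secreted proteins that bind FGF receptor tyrosine kinases together with heparan sulfate, the sulfated sugar chains of cell surface and matrix proteoglycans. A bound receptor signals through the adaptor Frs2 to the MAP kinase pathway, which turns on transcription factors of the Etv group and its own inhibitors of the Sprouty, Spred and Dusp families. In the limb, FGF signalling is known for its part in tendon progenitor growth and *Scx* expression, and FGF18 and FGFR3 for their part in cartilage.

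Library totals ran from 26967440 to 51806453 counts, except for cKO 1% replicate 1, which held 6857558. A count of 3, taken as the floor, was worth 0.0592 to 0.427 CPM, the counts scaled to an equal library size, and at most 0.108 CPM without that library. Tendon fibroblast markers were present in every library, with *Scx* at 6.2 to 21.5 CPM and *Tnmd* at 35.0 to 210 CPM. Among markers of other cells, the leukocyte gene *Ptprc* and the endothelial gene *Pecam1* did not exceed 0.162 and 0.291 CPM, while the endothelial gene *Tek* was at 11.3 to 76.5 CPM and the leukocyte genes *Cd68* and *Csf1r*, at up to 2.66 and 2.36 CPM, were above 0 in all 18 libraries. *Hif1a*, the targeted gene, ran from 294 to 504 CPM over all 18 libraries and was not lower in the libraries labelled cKO than in Ctrl libraries averaged over both O2 levels (log2 fold change 0.09, adjusted p = 0.605). With gesicles its log2 fold change was 0.06 in 20% O2 and -0.13 in 1% O2. The count sums all exons of the gene, so it does not show whether the floxed part is missing, and cKO is used here as the label gives it. *Xist*, which is read in female cells, was at 0 in replicate 1 of each Ctrl and gesicle group and above 0 in replicates 2 and 3, and the reverse held in the cKO groups, so sex is unevenly spread over genotypes.

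The abundance of the 10 genes was ordered per length of their exons (FPKM, the CPM divided by exon length in kilobases). *Fgf7*, a ligand of connective tissue cells that acts on epithelia, stood first at a mean of 101 ± 35.5 FPKM (SD, n = 18 libraries). *Fgf18* followed at 19.1 ± 11.8 FPKM and *Fgfr1*, the main receptor of mesenchymal cells, at 18.2 ± 5.23 FPKM. These SDs pool both O2 levels, and the order of this pair turned with O2. In 20% O2 the Ctrl, cKO and gesicle group means were 22.6, 20.3 and 21.4 FPKM for *Fgfr1* and 12.6, 9.47 and 10.7 FPKM for *Fgf18*. In 1% O2 they were 17.9, 10.9 and 16.2 FPKM against 21.7, 30.1 and 30.3 FPKM. *Fgf2*, a ligand stored on heparan sulfate in the matrix, reached 11.3 ± 5.16 FPKM and *Fgf5*, known for ending hair growth, 4.64 ± 2.60 FPKM. Over the 18 libraries *Fgfr2* at 2.20 ± 0.994 FPKM and *Fgf10* at 1.95 ± 1.91 FPKM overlapped, as did *Fgf21* at 1.14 ± 0.718 FPKM and *Fgfr3* at 0.747 ± 0.514 FPKM. In 20% O2 the Ctrl, cKO and gesicle group means were 3, 1.23 and 2.28 FPKM for *Fgfr2* and 0.8, 0.361 and 0.699 FPKM for *Fgf10*. In 1% O2 they were 2.31, 1.20 and 3.16 FPKM against 3.72, 3.03 and 3.08 FPKM. *Fgf9* was lowest at 0.426 ± 0.176 FPKM. *Fgfr1* thus held more transcript per length than *Fgfr2* and *Fgfr3* in every group, with group means of 10.9 to 22.6 FPKM against 1.20 to 3.16 FPKM and 0.240 to 1.34 FPKM. The receptors *Fgfr4* and the klotho co-receptors *Kl* and *Klb*, of which *Klb* is needed for FGF21 signalling, had at most 6, 6 and 3 counts in a library and were not tested.

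The genes also differed in how far they ranged. *Fgf10* moved most, 32.6-fold between its lowest and highest library, followed by *Fgf5* at 14.6-fold and *Fgfr3* at 10.6-fold. *Fgfr1* and *Fgf7* moved least, 2.90-fold and 3.13-fold. The averaged tests below called some ligands for O2, and *Fgf2* and the receptors *Fgfr2* and *Fgfr3* for genotype, over which sex is unevenly spread. The genotype calls of *Fgf2* and *Fgfr2* were near the threshold and were lost with *Xist* as a covariate.

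**Figure D1:**
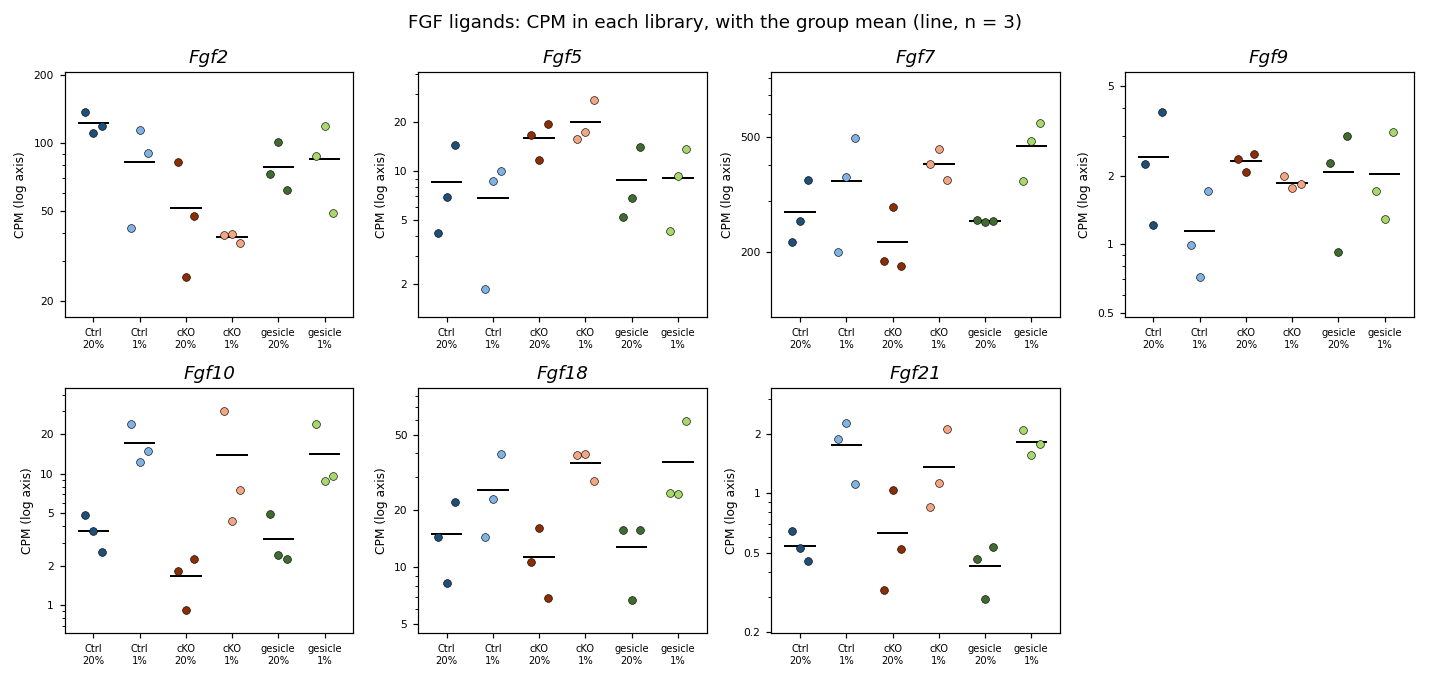
CPM (log axis) of the 7 FGF ligands in each of the 18 libraries, 3 per group, with points for libraries and lines for group means. *Fgf10* is higher in every 1% O2 library than in the 20% O2 libraries of its arm, *Fgf2* is lower in the cKO groups than in the untreated Ctrl group at the same O2, and *Fgf9* spreads widely within the Ctrl and gesicle groups and little within the cKO groups.

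The effect of 1% O2 was tested within each arm and as an average over the 3 arms. A gene was called at an adjusted p under 0.05 with at least a 1.5-fold difference. Averaged over the arms, 4 of the 10 genes were called, all ligands and all higher in 1% O2, namely *Fgf10*, *Fgf21*, *Fgf18* and *Fgf7*. Of all genes tested, 10.5% were called in this comparison, 867 higher and 830 lower. These 4 calls held under each of 9 other settings and without each of the 18 libraries in turn. Among the settings, the unadjusted p and no fold change minimum only loosen the rule on the same fit. A call could not be lost under them. Libraries that may come from the same mouse entered as separate samples here, so these p-values measure the spread between libraries.

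*Fgf10*, a ligand of mesenchyme that acts on epithelial FGFR2, showed the widest difference. In Ctrl TFs it was at 4.85, 3.66 and 2.53 CPM in 20% O2 and 24.0, 12.4 and 14.9 CPM in 1% O2. In cKO TFs it was at 1.83, 0.917 and 2.24 CPM against 29.9, 4.41 and 7.55 CPM. In gesicle-treated TFs it was at 4.96, 2.42 and 2.27 CPM against 24.0, 8.86 and 9.63 CPM. Every 1% O2 library lay above every 20% O2 library of its arm, and replicate 1 was the highest 1% O2 library in each arm. The average difference was 5.48-fold (log2 fold change 2.45, SE 0.36, adjusted p = 2.11e-04). Within arms *Fgf10* was 8.08-fold higher in cKO TFs (log2 fold change 3.01, SE 0.64, adjusted p = 0.0329), and it did not pass in Ctrl TFs (log2 fold change 2.22, SE 0.60, adjusted p = 0.0876) or gesicle-treated TFs (log2 fold change 2.14, SE 0.61, adjusted p = 0.0712). The call in cKO TFs was lost without cKO 20% replicate 1 (adjusted p = 0.103) or replicate 3 (adjusted p = 0.101), and without cKO 1% replicate 1, the shallow library, where the log2 fold change was 1.87 (adjusted p = 0.0774).

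*Fgf21*, a hormone-like FGF known from fasting and cell stress, was near the bottom of the range but rose with 1% O2. Its values in Ctrl TFs were 0.644, 0.532 and 0.456 CPM in 20% O2 and 1.88, 2.26 and 1.11 CPM in 1% O2. In cKO TFs they were 0.323, 1.04 and 0.521 CPM against 0.854, 1.12 and 2.10 CPM, and these overlapped. In gesicle-treated TFs they were 0.463, 0.294 and 0.533 CPM against 2.09, 1.55 and 1.78 CPM. These levels rest on 6 to 84 counts per library. The average difference was 3.10-fold (log2 fold change 1.63, SE 0.25, adjusted p = 2.69e-04). In the main edgeR fit *Fgf21* was the only one of the 10 genes called in gesicle-treated TFs, 4.17-fold higher (log2 fold change 2.06, SE 0.43, adjusted p = 0.0167). Without gesicle 20% replicate 2 or gesicle 1% replicate 3 this call was lost, at adjusted p = 0.107 and 0.0575, and with counts thinned to equal depth it was lost as well (adjusted p = 0.149) while *Fgf10* was called.

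*Fgf18*, a ligand of skeletal tissues that acts largely through FGFR3 in cartilage, was at 14.5, 8.24 and 22 CPM in Ctrl TFs in 20% O2 and 14.4, 22.9 and 39.9 CPM in 1% O2, which overlapped. In cKO TFs it was at 10.7, 16.2 and 6.89 CPM against 39.0, 39.6 and 28.6 CPM. In gesicle-treated TFs it was at 15.8, 6.70 and 15.8 CPM against 24.6, 24.4 and 59.0 CPM. The last 2 arms did not overlap between O2 levels. The average difference was 2.49-fold (log2 fold change 1.32, SE 0.27, adjusted p = 0.00292). No arm alone passed in the main edgeR fit, at adjusted p-values of 0.382 in Ctrl, 0.0629 in cKO and 0.108 in gesicle-treated TFs. DESeq2 called *Fgf18* in cKO TFs (adjusted p = 0.00234) and gesicle-treated TFs (0.0223). With no filter on low counts edgeR called it in cKO TFs (0.00503). With the replicate number as a block it did so in gesicle-treated TFs (0.0356), though same-numbered libraries did not all deviate together there.

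*Fgf7* was at 218, 256 and 355 CPM in Ctrl TFs in 20% O2 and 201, 365 and 497 CPM in 1% O2. In cKO TFs it was at 186, 286 and 179 CPM against 405, 455 and 356 CPM. In gesicle-treated TFs it was at 259, 255 and 257 CPM against 354, 486 and 561 CPM. Ctrl libraries overlapped between O2 levels and those of the other arms did not. The average difference was 1.63-fold (log2 fold change 0.71, SE 0.16, adjusted p = 0.00473). No arm alone passed in the main edgeR fit, whereas DESeq2 called *Fgf7* in cKO TFs (adjusted p = 0.0394) and gesicle-treated TFs (0.0428). With no filter on low counts edgeR called it in cKO TFs (0.0422). With the replicate number as a block it did so in gesicle-treated TFs (0.0278), though same-numbered libraries did not all deviate together there.

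**Figure D2:**
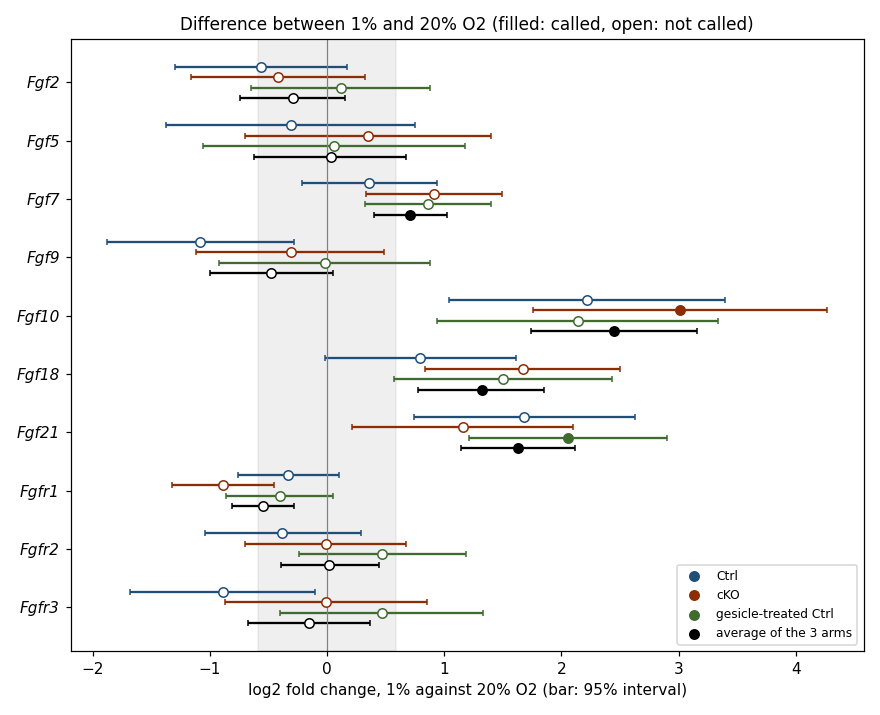
Log2 fold change between 1% and 20% O2 for each gene, in each arm and averaged over the 3 arms, with 95% intervals, filled points for called genes and a grey band for differences under 1.5-fold. *Fgf10*, *Fgf18*, *Fgf21* and *Fgf7* lie to the right in every arm, and the receptors lie at or to the left of 0 within each arm except for *Fgfr2* and *Fgfr3* in gesicle-treated TFs.

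The sequences before the start sites of these 4 ligands are shown because the genes were higher together in 1% O2. They hold the 250 bases before each RefSeq start (build GRCm38.p6), 5′ to 3′ on the strand of the gene, with letters in capitals where the core of the hypoxia response element, ACGTG or GCGTG on either strand, was found. The windows are *Fgf10* at chr13:118714449-118714698 (+), *Fgf21* at chr7:45615491-45615740 (-), *Fgf18* at chr11:33147401-33147650 (-) and *Fgf7* at chr2:126034408-126034657 (+).
Fgf10: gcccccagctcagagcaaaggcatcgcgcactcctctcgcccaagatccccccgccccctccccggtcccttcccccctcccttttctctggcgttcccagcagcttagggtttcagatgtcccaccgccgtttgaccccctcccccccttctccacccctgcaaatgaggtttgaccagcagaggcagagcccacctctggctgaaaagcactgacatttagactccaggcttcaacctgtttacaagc
Fgf21: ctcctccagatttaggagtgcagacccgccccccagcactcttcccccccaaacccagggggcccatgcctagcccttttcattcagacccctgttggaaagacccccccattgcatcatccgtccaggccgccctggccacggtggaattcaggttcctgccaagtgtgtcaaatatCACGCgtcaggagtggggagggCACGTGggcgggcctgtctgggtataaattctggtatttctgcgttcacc
Fgf18: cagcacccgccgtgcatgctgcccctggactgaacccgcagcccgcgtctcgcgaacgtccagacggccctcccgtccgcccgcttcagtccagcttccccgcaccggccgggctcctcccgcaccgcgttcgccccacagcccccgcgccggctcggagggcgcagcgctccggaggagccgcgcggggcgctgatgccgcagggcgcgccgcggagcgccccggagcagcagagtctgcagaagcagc
Fgf7: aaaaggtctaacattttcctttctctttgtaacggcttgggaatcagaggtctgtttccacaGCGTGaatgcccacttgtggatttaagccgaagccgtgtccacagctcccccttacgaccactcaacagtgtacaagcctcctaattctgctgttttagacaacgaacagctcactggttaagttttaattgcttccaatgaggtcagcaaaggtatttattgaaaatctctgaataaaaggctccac

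The *Fgf21* window held 3 matches, of which GCGTG on the opposite strand began 72 bases before the start. The other pair, ACGTG on the opposite and on the same strand, began 50 and 49 bases before it and overlapped in a single palindrome. *Fgf7* held GCGTG on the same strand 188 bases before its start, and the *Fgf10* and *Fgf18* windows held neither. Of 32851 RefSeq promoter windows of the same length, 38.6% held either core. Among all 10 genes, 9 had a window and 5 a match. *Fgf2* held 1 match, *Fgf9* held 1, the earlier of the 2 *Fgfr3* windows held 4, and *Fgf5* and *Fgfr2* held none. The match is a description of letters in this window and was not set against binding data. The RefSeq start of *Fgf10* lies inside the longer GENCODE gene model, which opens at position 118669791 of chromosome 13, so other starts were not searched.

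The receptors did not follow the ligands. *Fgfr1* was at 221, 243 and 207 CPM in Ctrl TFs in 20% O2 and 161, 220 and 149 CPM in 1% O2. In cKO TFs it was at 264, 137 and 199 CPM against 90.9, 105 and 126 CPM, and in gesicle-treated TFs at 164, 234 and 236 CPM against 162, 195 and 122 CPM. Group means were lower in 1% O2 in each arm, and only the cKO libraries did not overlap between O2 levels. In cKO TFs *Fgfr1* was 1.85-fold lower in 1% O2 (log2 fold change -0.89, SE 0.22, adjusted p = 0.0585), which did not pass in the main edgeR fit. It was called there by DESeq2 (adjusted p = 0.00611) and by edgeR with no filter on low counts (0.0159). Averaged over the arms *Fgfr1* had a log2 fold change of -0.55 (SE 0.13, adjusted p = 0.00808), which passed the test on p but was under the 1.5-fold minimum, so it was not called. It passed 1.5-fold without any of 5 libraries, Ctrl 1% replicate 2 (log2 fold change -0.62), cKO 20% replicate 2 (-0.62), cKO 1% replicate 3 (-0.60), gesicle 20% replicate 1 (-0.60) and gesicle 1% replicate 2 (-0.61).

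The other 5 genes were not called for O2 in any arm or in the average. *Fgf9*, a ligand of skeletal and germ tissues, was at 2.25, 1.21 and 3.83 CPM in Ctrl TFs in 20% O2 and 0.994, 0.715 and 1.71 CPM in 1% O2 (log2 fold change -1.08, SE 0.41, adjusted p = 0.220). Its average over the arms was -0.48 (95% interval -1.0 to 0.05). The average log2 fold change of *Fgf2* was -0.29 (95% interval -0.74 to 0.15), of *Fgf5* 0.03 (-0.62 to 0.67), of *Fgfr2* 0.02 (-0.39 to 0.44) and of *Fgfr3* -0.15 (-0.67 to 0.37).

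Taken arm by arm, few calls were made. In Ctrl TFs 0 of the 10 genes were called by the main edgeR fit, where 1.88% of all genes were, with 4 at an unadjusted p under 0.05 and at least 1.5-fold (*Fgf10*, *Fgf21*, *Fgf9* and *Fgfr3*) and 2 by DESeq2 (*Fgf10* and *Fgf21*). Of all 15850 genes, 1497 reached that unadjusted threshold and DESeq2 called 696. With the replicate number as a block, since same-numbered Ctrl libraries of the 2 O2 levels deviated together, *Fgf10* was called in Ctrl TFs (log2 fold change 2.21, adjusted p = 0.0245). In cKO TFs 1 gene was called where 2.1% of all genes were, and in gesicle-treated TFs 1 gene where 2.41% were. DESeq2 called *Fgf10*, *Fgf7* and *Fgf18* as higher and *Fgfr1* as lower in cKO TFs, and *Fgf10*, *Fgf21*, *Fgf7* and *Fgf18* as higher in gesicle-treated TFs. Over all genes it called 886 of 15850 in cKO TFs and 732 of 16174 in gesicle-treated TFs. The means of *Fgf10*, *Fgf21*, *Fgf18* and *Fgf7* were higher in 1% O2 in all 3 arms.

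Whether the O2 response differed with genotype was tested by an interaction term. Of the 10 genes 0 were called by edgeR, at an unadjusted p under 0.05 as well, and 0 by DESeq2. Of all genes 0% were called by edgeR, with 292 at an unadjusted p under 0.05 and at least 1.5-fold, and DESeq2 called 2. For *Fgf10* the O2 log2 fold change in cKO TFs exceeded that in Ctrl TFs by 0.79 with a 95% interval of -0.85 to 2.44, and for *Fgf18* by 0.88 (-0.27 to 2.03). For *Fgf21* it was lower by a log2 value of -0.53 (-1.85 to 0.79). These intervals span both directions.

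cKO and Ctrl TFs were compared in each O2 level and averaged over both. In the average, libraries that may come from the same mouse entered as separate samples, so its p-values measure the spread between libraries. Averaged, 3 of the 10 genes were called, all lower in cKO TFs, namely the receptors *Fgfr3* and *Fgfr2* and the ligand *Fgf2*, where 3.78% of all genes were called, 174 higher and 425 lower. In 20% O2 *Fgfr3* alone was called by the main edgeR fit, where 0.347% of all genes were. DESeq2 called *Fgfr2* (adjusted p = 0.0139) and *Fgf2* (0.0361) as well, as did edgeR with no filter on low counts (0.0231 and 0.0309). DESeq2 called 425 of all 15850 genes there. In 1% O2 0 were called by edgeR, where 0.0379% of all genes were, with 5 at an unadjusted p under 0.05 and at least 1.5-fold (*Fgf2*, *Fgf5*, *Fgfr1*, *Fgfr2* and *Fgfr3*) and 1 by DESeq2 (*Fgfr3*). Of all 15850 genes, 1549 reached that unadjusted threshold and DESeq2 called 302.

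**Figure D3:**
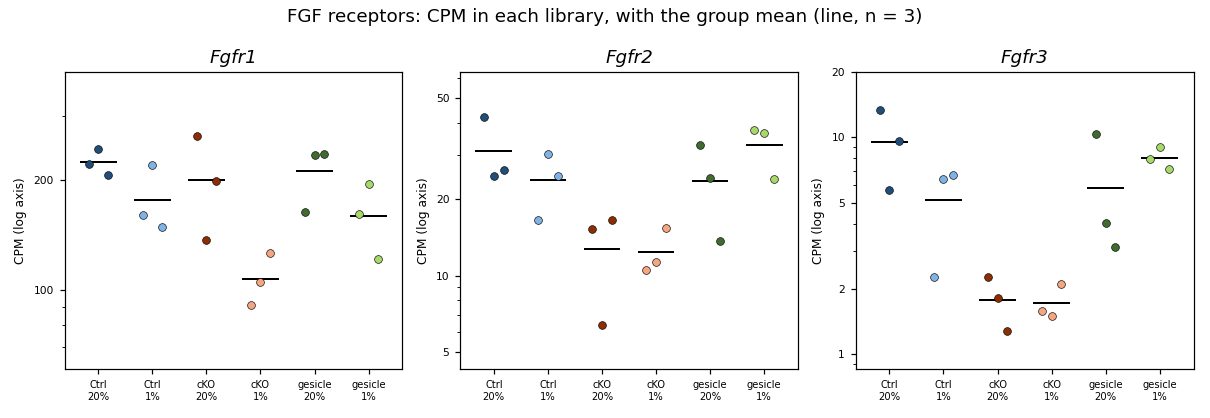
CPM (log axis) of the 3 FGF receptors in each of the 18 libraries, 3 per group, with points for libraries and lines for group means. The 6 cKO libraries sit at 1.27 to 2.26 CPM of *Fgfr3*, where the lowest Ctrl library, in 1% O2, is at 2.26 CPM, and *Fgfr2* is lower in cKO than in untreated Ctrl libraries at each O2 level.

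*Fgfr3*, the receptor known for restraining bone growth in cartilage, differed most. In 20% O2 it was at 13.4, 5.70 and 9.61 CPM in Ctrl TFs and 2.26, 1.81 and 1.27 CPM in cKO TFs. In 1% O2 it was at 2.26, 6.44 and 6.69 CPM in Ctrl TFs and 1.57, 1.5 and 2.10 CPM in cKO TFs. The genotypes did not overlap at either O2 level, and Ctrl 1% replicate 1 lay nearest to the cKO range. The average level in cKO TFs was 0.25 of that in Ctrl TFs (log2 fold change -2.00, SE 0.30, adjusted p = 0.00672), and this call held without each of the 12 libraries in turn and with same-numbered libraries of a genotype summed, as if each number were a mouse (log2 fold change -2.04, adjusted p = 0.0175). In 20% O2 alone the log2 fold change was -2.44 (SE 0.43, adjusted p = 0.0408). That call was lost without Ctrl 20% replicate 1 (adjusted p = 0.225), Ctrl 20% replicate 3 (0.133), cKO 20% replicate 2 (0.106) or cKO 20% replicate 3 (0.169), with the log2 fold change between -2.12 and -2.47.

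*Fgfr2*, whose splice forms serve epithelial or mesenchymal cells, was at 42.4, 24.6 and 26 CPM in Ctrl TFs in 20% O2 and at 15.3, 6.39 and 16.5 CPM in cKO TFs. In 1% O2 it was at 16.5, 30.2 and 24.8 CPM against 10.5, 11.3 and 15.4 CPM. Again the genotypes did not overlap at either O2 level. Uncalled genes also showed no overlap, *Fgf9* and *Fgfr1* in 1% O2 (adjusted p = 0.397 and 0.207, edgeR) and *Fgf10* in 20% O2 (0.391). How often 3 libraries against 3 do so over all genes was not counted. The average *Fgfr2* level in cKO TFs was 0.462 of that in Ctrl TFs (log2 fold change -1.11, SE 0.25, adjusted p = 0.0303). Gene-level counts do not separate the splice forms, and of the epithelial splicing factors *Esrp1* had at most 3 counts in a library and *Esrp2* 11 to 64.

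*Fgf2* was at 138, 111 and 119 CPM in Ctrl TFs in 20% O2 and at 82.4, 25.5 and 47.7 CPM in cKO TFs. In 1% O2 it was at 42.3, 115 and 90.6 CPM against 39.3, 39.7 and 36.3 CPM. The genotypes did not overlap at either level, although Ctrl 1% replicate 1 came close to the cKO libraries, as it did for *Fgfr3*. The average level in cKO TFs was 0.442 of that in Ctrl TFs (log2 fold change -1.18, SE 0.27, adjusted p = 0.0333).

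The averaged calls of *Fgfr2* and *Fgf2* were near the threshold. With same-numbered libraries of a genotype summed, 3 sums against 3, they did not pass (adjusted p = 0.124 and 0.208). The labels do not tie a number to a mouse, and in cKO TFs the same-numbered libraries did not all deviate together. The study's methods give n = 3, and *Xist* was at 0 in the same numbers at both O2 levels of each genotype. If a number is a mouse, the main averaged fit counted each mouse more than once. With *Xist* as a covariate both calls were lost, at adjusted p = 0.0531 and 0.0520. In that edgeR fit the averaged *Fgfr3* call was kept (log2 fold change -1.92, adjusted p = 0.0155). The *Fgfr2* call was lost without Ctrl 20% replicate 1 (adjusted p = 0.0853) or 3 (0.0537), Ctrl 1% replicate 2 (0.0769) or 3 (0.0636), or cKO 1% replicate 1 (0.0778) or 2 (0.0846). The *Fgf2* call was lost without Ctrl 20% replicate 1 (0.0891), 2 (0.0518) or 3 (0.0659), Ctrl 1% replicate 2 (0.0828) or 3 (0.0694), cKO 20% replicate 3 (0.0740), or cKO 1% replicate 1 (0.0799), 2 (0.0846) or 3 (0.0585). Fold changes stayed between -0.95 and -1.24 for *Fgfr2* and between -1.01 and -1.43 for *Fgf2* on the log2 scale over all settings.

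Sex moved with genotype, and the values were therefore read within libraries of like *Xist* status. Among libraries without *Xist* reads, *Fgfr3* was at 13.4 CPM in the Ctrl library and 1.81 and 1.27 CPM in the cKO libraries in 20% O2, and at 2.26 CPM against 1.5 and 2.10 CPM in 1% O2. Among those with *Xist* reads it was at 5.70 and 9.61 CPM against 2.26 CPM, and at 6.44 and 6.69 CPM against 1.57 CPM. *Fgfr2* and *Fgf2* were likewise lower in each cKO library than in each Ctrl library of the same *Xist* status and O2 level. For *Fgf2* without *Xist* reads in 1% O2 the gap was small, with 42.3 CPM against 39.7 and 36.3 CPM. The genotypes of these genes did not overlap at either O2 level, so this order was fixed in advance. It therefore does not tell genotype from sex. Each of these sets holds 1 to 2 libraries a side, so no test was made within them.

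Summed levels of some marker lists also differed between genotypes, which was not tested. The summed level of the 4 markers *Rgs5*, *Cspg4*, *Pdgfrb* and *Myh11* was 368 to 493 CPM in Ctrl and 148 to 394 CPM in cKO libraries in 20% O2, and 289 to 338 CPM against 159 to 228 CPM in 1% O2. None of the 4 was at 0 in any library. The 5 skeletal muscle markers summed to 24.4 to 47.7 CPM in Ctrl and 12.4 to 18 CPM in cKO libraries in 20% O2, and to 26.5 to 35.7 CPM against 18.6 to 24.1 CPM in 1% O2, with *Pax7* at 0 in all libraries and *Myod1* at no more than 1 count. The 3 Schwann cell markers summed to 0.517 to 0.856 CPM in Ctrl and 1.45 to 2.37 CPM in cKO libraries in 20% O2, and to 0.469 to 1.56 CPM against 1.43 to 2.13 CPM in 1% O2. The part of these cells in the lower *Fgf2*, *Fgfr2* and *Fgfr3* was not tested, and in bulk samples fewer cells of a type and less RNA per cell cannot be told apart.

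*Fgf5* ran the other way but was not called. It was at 4.16, 6.94 and 14.6 CPM in Ctrl TFs in 20% O2 and at 16.8, 11.7 and 19.7 CPM in cKO TFs. In 1% O2 it was at 1.88, 8.73 and 10.0 CPM against 15.9, 17.4 and 27.4 CPM. The genotypes overlapped in 20% O2 and not in 1% O2. The average log2 fold change was 1.23 (SE 0.38, adjusted p = 0.0731), and DESeq2 gave an adjusted p of 0.0111. With same-numbered libraries summed the adjusted p was 0.308. *Fgfr1* had an average log2 fold change of -0.45 (95% interval -0.75 to -0.14, adjusted p = 0.0945).

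The ligands called for O2 in the average were not called for genotype. The average log2 fold change between cKO and Ctrl TFs was -0.08 for *Fgf7* (95% interval -0.49 to 0.33), 0.03 for *Fgf18* (-0.55 to 0.60) and -0.04 for *Fgf21* (-0.71 to 0.63). *Fgf10* stood at -0.76 (-1.58 to 0.07, adjusted p = 0.251), and without cKO 1% replicate 1, its highest library, it was lower in cKO TFs at -1.33 (adjusted p = 0.0498). *Fgf9*, which was called for neither, stood at 0.31 (-0.25 to 0.87).

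**Figure D4:**
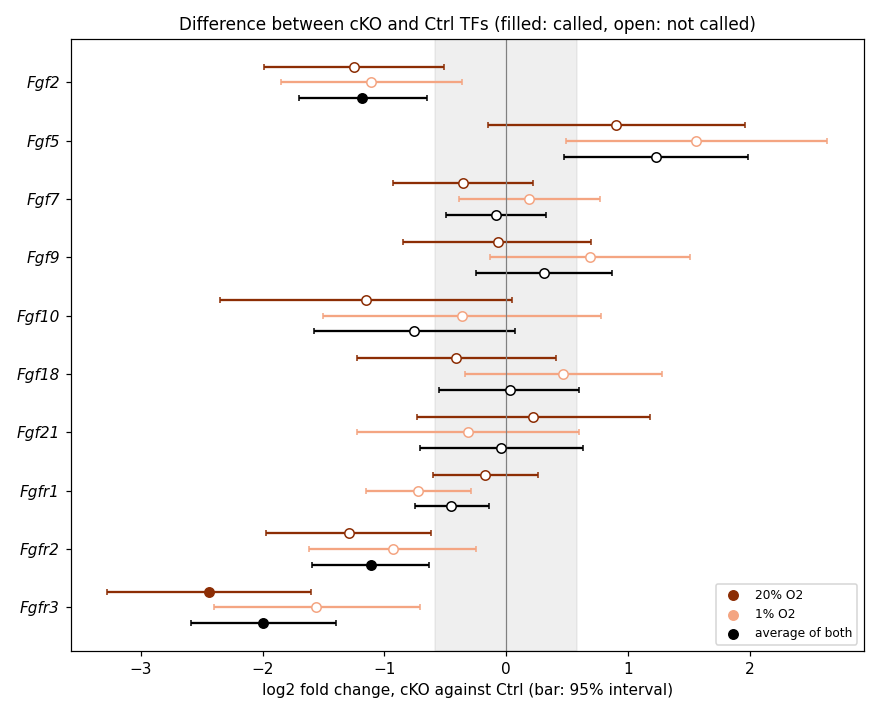
Log2 fold change between cKO and Ctrl TFs for each gene, in 20% O2, in 1% O2 and averaged, with 95% intervals, filled points for called genes and a grey band for differences under 1.5-fold. *Fgfr3*, *Fgfr2* and *Fgf2* lie to the left at both O2 levels and *Fgf5* to the right.

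Cre gesicles in Ctrl TFs gave no called difference in any of the 10 genes. In 20% O2 edgeR called 0 of them, where 0.0247% of all genes were called, and in 1% O2 0 where 0% were, with 390 and 235 of all genes at an unadjusted p under 0.05 and at least 1.5-fold. None of the 10 reached that unadjusted threshold, DESeq2 called 0 of them, and the replicate block, used because same-numbered Ctrl and gesicle libraries deviated together, called 0 as well. DESeq2 called 46 of all genes in 20% O2 and 0 in 1% O2. For *Fgfr3* the gesicle libraries were at 10.4, 4.03 and 3.12 CPM in 20% O2 and 7.95, 9.06 and 7.13 CPM in 1% O2, all above the cKO libraries at the same O2 level. The *Fgfr3* values in 1% O2 also lay above all untreated Ctrl libraries (log2 fold change 0.65), and those in 20% O2 overlapped with them. For *Fgf2* the gesicle libraries were at 73.0, 101 and 62.2 CPM and at 88.0, 119 and 49.3 CPM. In 20% O2 these lay below all untreated Ctrl libraries, at 138, 111 and 119 CPM (log2 fold change -0.64), and in 1% O2 they overlapped. The 95% intervals of the log2 fold change were -1.59 to 0.15 for *Fgfr3* and -1.41 to 0.13 for *Fgf2* in 20% O2, so a drop of either remains within them.

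Levels that moved together over the 18 libraries are given as a description, since the libraries share groups and may share mice. Pearson's r of log2 CPM was 0.88 for *Fgfr2* and *Fgfr3*, 0.84 for *Fgf2* and *Fgfr2* and 0.79 for *Fgf2* and *Fgfr3*. It was 0.87 for *Fgf7* and *Fgf18*, 0.66 for *Fgf10* and *Fgf21*, and -0.74 for *Fgf18* and *Fgfr1*. Among 12814 other genes with a mean of at least 1 CPM, those most like each member were *Olfm1* (r = 0.943) and *Dnaja4* (0.936) for *Fgf10*, *Pik3ip1* (0.969) and *Auh* (0.941) for *Fgf18*, and *Hpgd* (0.951) and *Hccs* (0.896) for *Fgf7*. They were *Lman2l* (0.926) and *Slc39a13* (0.906) for *Fgf21*, *Tox* (0.927) and *Tpp1* (0.925) for *Fgf5*, and *Tspan12* (0.838) and *Cadm2* (0.832) for *Fgf9*. For *Fgfr3* they were *Smad6* (0.951) and *Ddr1* (0.934), for *Fgfr2* *Ldlrad3* and *Plxnc1* (both 0.905), for *Fgf2* *Sned1* (0.947) and *Hip1* (0.946), and for *Fgfr1* *5031439G07Rik* (0.973) and *Phlpp1* (0.970).

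The rest of the FGF pathway was read from 8 lists of 78 genes, of which 63 were tested. In the O2 average 1 was higher and 7 were lower in 1% O2, where 10.5% of all genes were called, with a median log2 fold change of -0.19 beside -0.024 over all genes tested. *Ier3*, an early response gene of growth factor signalling, was higher (log2 fold change 0.88, adjusted p = 1.64e-04), and it was called in each arm. Of 12 feedback inhibitors 2 were lower, the MAP kinase phosphatase *Dusp5* (-1.09) and the receptor antagonist *Il17rd* (-1.19). Of 12 tested proteoglycans and FGF binding proteins 2 were lower, the basement membrane proteoglycans *Agrn* (-1.10) and *Hspg2* (-0.68). Of 13 genes of heparan sulfate synthesis and editing, the 3-O-sulfotransferase *Hs3st1* was lower (-1.40), and it was called within cKO TFs as well (-2.81). Both tested intracellular FGF homologous factors, which are not secreted, were lower, *Fgf13* (-1.28) and *Fgf14* (-0.98). Of the 10 transcriptional targets none besides *Ier3* was called, and *Etv5* had a log2 fold change of -0.40 (adjusted p = 0.0131), under 1.5-fold. None of the 10 adaptors and transducers was called.

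Between genotypes 3 of the 63 were higher and 4 lower in cKO TFs in the average over O2 levels, where 3.78% of all genes were called, 174 higher and 425 lower, with a median log2 fold change of -0.12 beside 0.024 over all genes tested. The Sprouty inhibitors *Spry1* (log2 fold change 1.01, adjusted p = 0.0187) and *Spry2* (0.98, adjusted p = 0.0153) were higher and the phosphatase *Dusp4* was lower (-0.96, adjusted p = 0.0460), so the feedback inhibitors split in direction. *Spry4*, *Dusp6* and *Spred1* had values of -0.28, 0.38 and -0.28 and did not pass. The transcription factor *Etv1* was higher (1.14, adjusted p = 0.0448), while *Etv4* (-0.40) and *Etv5* (-0.21) did not pass. Lower genes on the heparan sulfate side were the syndecan *Sdc3* (-0.85), the chain-starting enzyme *Extl3* (-1.08) and the sulfotransferase *Ndst1* (-1.14). In 20% O2 alone *Spry2* was called (1.34, adjusted p = 0.0494), and in 1% O2, in the interaction and with gesicles 0 of the 63 were called.

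**Figure D5:**
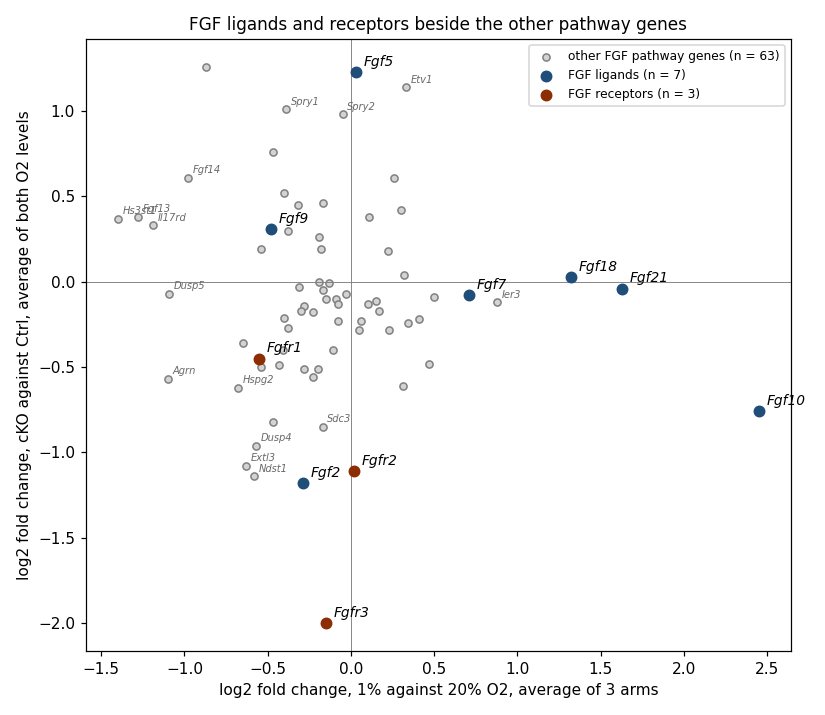
Log2 fold change between 1% and 20% O2 (average of 3 arms, x axis) against that between cKO and Ctrl TFs (average of both O2 levels, y axis) for the 10 FGF genes and 63 other pathway genes, with names for those called. *Fgf10*, *Fgf21*, *Fgf18* and *Fgf7* lie to the right of the other ligands and receptors, and *Fgfr3*, *Fgfr2* and *Fgf2* lie at the bottom beside the pathway genes *Ndst1* and *Extl3*.

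Annotation sets some limits on these counts. *Fgf2* (chromosome 3, 37348346 to 37410108, + strand) shares 640 exon bases with *Nudt6* on the opposite strand, and *Fgfr3* (chromosome 5, 33721674 to 33737068, + strand) shares 998 with *G630022F23Rik* on the opposite strand. *Fgf10* and *Fgfr1* share 123 and 164 exon bases with antisense genes. *Fgf2* also shares 255 exon bases with *Gm43439* on its own strand, and *Fgfr2* shares 314 exon bases with *Ctbp2* on the strand of *Fgfr2*. Whether the counting used strand is not given in the sources used here, so reads of these stretches cannot be assigned to either gene with certainty.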

How the data were processed

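Poly-A libraries of 18 mouse tail TF samples were sequenced as 151 bp paired ends. Per the study's methods, reads were trimmed with cutadapt 4.8, aligned to GRCm38 with STAR 2.7.8a and assigned to genes with RSEM 1.3.3. The authors deposited the estimated counts, which hold whole numbers only and are not normalized. FPKM were computed here with exon lengths of GENCODE M21 (GRCm38).

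Genes were filtered with filterByExpr, scaled by TMM and tested with edgeR 4.0.16 (quasi-likelihood F test, two-sided, Benjamini-Hochberg adjusted) with 15850 genes in 12 libraries (no gesicles) or, for gesicle comparisons and the O2 average, 16174 genes in all 18. The study's methods name DESeq2 with a paired design. DESeq2 1.42.0 and the other settings are alternatives. Intervals are 1.96 SE.

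Replicate numbers in the labels were judged to pair libraries where all 3 same-numbered pairs correlated above 0.1 in their deviations from group means. This held for Ctrl 20% and 1% (0.372, 0.419 and 0.654) and for Ctrl with and without gesicles (0.448, 0.609 and 0.499 in 20% O2, and 0.303, 0.176 and 0.383 in 1% O2). It did not hold for cKO 20% and 1% (0.0736, 0.133 and 0.495) or for gesicle-treated 20% and 1% (0.0191, 0.266 and -0.0871). Nor did it hold between Ctrl and cKO (-0.219, -0.0468 and -0.119 in 20% O2, and 0.0917, 0.314 and -0.00561 in 1% O2). The main fits used no replicate block. As an alternative the block was run in every comparison, also where the numbers were not judged to pair libraries. No pair of libraries agreed within sampling noise (chi-square per degree of freedom of at least 15.1). The tests were tried on simulated data first.

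The 10 genes, the pathway and marker lists and the rule for named genes (all members, each called pathway gene, and the 2 most correlated genes of each member) were chosen with earlier results of these data known. Cre and reporter rows of the table (4) were not used here.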

Additional observations from a re-analysis of the deposited data

Results flagged for a closer look

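Groups of 3 libraries are too small for a search for far samples, and none was made. *Fgfr2* and *Fgfr3* were singled out for their response to 1% O2. In untreated Ctrl TFs every 1% O2 library lay below the mean of the 20% O2 group, and in gesicle-treated TFs every 1% O2 library lay above it. For *Fgfr2* there were near ties, Ctrl 1% replicate 2 at 30.2 CPM against a mean of 31 and gesicle 1% replicate 3 at 24 against 23.5. The 20% and 1% O2 libraries overlapped in both arms for both genes. The difference between the arms in the O2 log2 fold change was 0.86 for *Fgfr2* (SE 0.51, unadjusted p = 0.116, edgeR) and 1.37 for *Fgfr3* (SE 0.63, unadjusted p = 0.0455, edgeR), and the adjusted p was 1 for both. This test was added after the values had been seen. Of all 16174 genes tested for it, 0 passed at an adjusted p under 0.05 and 243 had an unadjusted p under 0.05.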

How the results depend on the processing

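The count of the 10 genes called kept within 1.5 times its value under every alternative for the O2 average (4 to 5, also without each library) and at 0 for the interaction and both gesicle comparisons. Over all genes the O2 average calls ran from 1256 with thinned counts to 3980 with no fold change minimum. In Ctrl TFs the O2 count of the 10 genes went from 0 to 2 with DESeq2, 1 with no filter on low counts, 1 with the replicate block, 1 with only the groups compared, 1 with all 18 libraries in the fit and 4 at an unadjusted p. The calls over all genes went from 298 to 696 with DESeq2 and 1497 at an unadjusted p. In cKO TFs the O2 count of the 10 genes went from 1 to 4 with DESeq2 and with no filter, 2 with CPM above 1 in at least 3 libraries, with all libraries and with counts thinned to equal depth, 3 with the replicate block, 0 with only the groups compared and 5 at an unadjusted p, and without single libraries it ran from 0 to 5. The calls over all genes went from 333 to 886 with DESeq2, 511 with no filter and 1845 at an unadjusted p. Without single libraries they ran from 98 to 1373. In gesicle-treated TFs the O2 count of the 10 genes went from 1 to 4 with DESeq2, with the replicate block and at an unadjusted p, and 2 with no filter or only Ctrl libraries, and without single libraries it ran from 0 to 1. The calls over all genes went from 390 to 732 with DESeq2, 472 with the block and 1522 at an unadjusted p. For genotype in 20% O2 the count of the 10 genes went from 1 to 3 with DESeq2, with no filter and at an unadjusted p, and 0 with the replicate block, only the groups compared or thinned counts, with 0 to 1 without single libraries. The calls over all genes went from 55 to 425 with DESeq2, 281 with no filter and 1352 at an unadjusted p. In 1% O2 the genotype count of the 10 genes went from 0 to 1 with DESeq2 and 5 at an unadjusted p. The calls over all genes went from 6 to 302 and 1549. The averaged genotype count of 3 went to 1 with *Xist* as a covariate and 1 with same-numbered libraries summed, and ran from 1 to 3 without single libraries. The calls over all genes went from 599 to 343 with *Xist* and 25 with libraries summed. Without single libraries they ran from 137 to 1531. The block changed no other count by over 1.5 times, though it exchanged *Fgf2* for *Fgf5* in the averaged genotype comparison (*Fgf5* at adjusted p = 0.0400, and 0.308 with same-numbered libraries summed). In cKO TFs, in gesicle-treated TFs and between genotypes the block used numbers whose libraries did not all deviate together. With thinned counts the gesicle O2 count stayed at 1 but was *Fgf10* in place of *Fgf21* (adjusted p = 0.149). The cause of these shifts was not tested.

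Of 100 log2 fold changes (10 genes in 10 comparisons) 38 lay within 1 SE of 0, and 31 of these changed sign in at least 1 alternative. Of the other 62, a pair changed sign, *Fgf2* for O2 in cKO TFs (-0.74 to 0.07 without single libraries) and *Fgf18* for gesicles in 1% O2 (-0.07 to 0.97). Counts of 6 to 84 limit the precision of *Fgf21*, and the 6857558 counts of cKO 1% replicate 1 limit that of *Fgf21*, *Fgfr3* and *Fgf9* in that library, at 6, 11 and 14 counts.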
